A study of Mus musculus with 2 samples.

Results

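Senescence and the p53 response in the postischemic mouse kidney were read from 8 genes, chosen by symbol from the 32285 measured and followed through the cell types: *Cdkn1a*, *Cdkn2a*, *Cdkn2b*, *Trp53*, *Mdm2*, *Ccng1*, *Gdf15* and *Bax*. All 8 were found in both libraries. The kidneys came from male littermates, 8 to 10 weeks of age at surgery. They were collected on day 14 after 25 minutes of unilateral ischemia-reperfusion injury and after 4 injections of tamoxifen of 3 mg each. One mouse, labelled Cre-, lacked the Cre transgene, and the other carried Cdh5-CreERT2 with floxed Phd1, Phd2 and Phd3 alleles (PHDTiEC), so that tamoxifen is meant to remove the 3 oxygen-sensing prolyl hydroxylases from cells that use the endothelial *Cdh5* promoter. Both mice had the injury and the tamoxifen, and no uninjured kidney was analysed here. Whether the Cre- mouse carried the floxed alleles is not given in the labels used here. Single-cell RNA was counted as unique molecular identifiers (UMIs, 1 per captured molecule), and with 1 library of 1 mouse per genotype no difference between the genotypes has a replicate check, so none was tested.

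The p53 protein, encoded by *Trp53*, is a transcription factor that DNA damage and other stresses stabilize. Its target *Cdkn1a* encodes p21, an inhibitor of cyclin-dependent kinases that halts the cell cycle, and its target *Mdm2* encodes the ubiquitin ligase that degrades p53 in turn. *Cdkn2a*, which encodes p16Ink4a and p19Arf from separate first exons, and *Cdkn2b*, which encodes p15Ink4b, act on the same cell cycle block, p16Ink4a and p15Ink4b by binding CDK4 and CDK6. *Ccng1* (cyclin G1), *Bax* (a pore-forming protein of apoptosis) and *Gdf15* (a secreted stress cytokine) are also p53 targets, and *Gdf15* answers to the integrated stress response as well. In the kidney, lasting p21 and p16Ink4a in tubular cells after ischemia is known from failed repair.

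The members lie on 6 chromosomes of GRCm38. *Cdkn1a* (ENSMUSG00000023067) spans chr17:29090976-29100727 on the plus strand and *Trp53* (ENSMUSG00000059552) chr11:69580359-69591873 on the same strand. *Cdkn2a* (ENSMUSG00000044303, chr4:89274471-89294653) and *Cdkn2b* (ENSMUSG00000073802, chr4:89306299-89311039) are neighbours on the minus strand. *Mdm2* (ENSMUSG00000020184, chr10:117688875-117710758), *Ccng1* (ENSMUSG00000020326, chr11:40748552-40755311), *Gdf15* (ENSMUSG00000038508, chr8:70629393-70632456) and *Bax* (ENSMUSG00000003873, chr7:45461697-45466898) are also on the minus strand. No other gene of the count table overlaps any of the 8 in the GENCODE vM21 annotation. The 3′ counts of *Cdkn2a* cannot tell p16Ink4a from p19Arf transcripts, which share their last exons.

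The promoters of the members were read because 5 of the 8 are textbook p53 targets. RefSeq windows of 300 bases (250 before to 50 after each start, GRCm38.p6) were found for all 8 genes, 11 windows in all, and searched for the consensus p53 half-site of 10 bases, which reads the same on both strands. An exact half-site stood in 2745 of 32851 promoters (8.36%), and 2 half-sites separated by 0 to 13 bases in 24 (0.0731%). Of the members, the upstream promoter of *Cdkn1a* held 2 half-sites 12 bases apart, and *Trp53*, *Mdm2*, *Ccng1* and *Bax* held 1 each. *Cdkn2a*, *Cdkn2b* and *Gdf15* held none in these windows. The stretches with a half-site are shown 5′ to 3′ on the strand of the gene, with half-sites in capitals:
Cdkn1a, upstream promoter, chr17:29090881-29090962, plus strand: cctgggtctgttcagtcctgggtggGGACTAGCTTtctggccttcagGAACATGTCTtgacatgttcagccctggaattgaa
Trp53, chr11:69580259-69580318, plus strand: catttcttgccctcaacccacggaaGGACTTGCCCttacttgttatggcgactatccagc
Mdm2, chr10:117710910-117710969, minus strand: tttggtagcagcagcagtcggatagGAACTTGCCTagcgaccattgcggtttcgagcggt
Ccng1, chr11:40755437-40755496, minus strand: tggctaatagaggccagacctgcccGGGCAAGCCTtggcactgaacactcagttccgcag
Bax, chr7:45467065-45467124, minus strand: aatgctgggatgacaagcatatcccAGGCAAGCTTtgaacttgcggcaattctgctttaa
The 6 letters ACATGT, the same on both strands, occurred at least 2 times in 108 of the 32851 promoters (0.329%). The upstream promoter of *Cdkn1a* was among these, once inside its second half-site and once in the bases right after it, and no other member's window held the letters. These matches describe the sequence only and carry no measurement of binding.

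In total, 136004367 UMIs were counted for Cre- and 146758812 for PHDTiEC, and 8548 and 9309 barcodes passed the limits of 500 to 100000 UMIs, at least 200 genes and at most 50% mitochondrial UMIs. The median kept barcode had 7500 and 7898 UMIs, and 28 kept barcode sequences occurred in both libraries. As a check of the labels, *Egln1* (PHD2) was read in endothelial-like cells, where it had 66.8 CPM (UMIs of a gene per 1000000 UMIs of the class) in Cre- and 202 CPM in PHDTiEC. *Egln3* (PHD3) had 26.3 and 160 CPM, and *Egln2* (PHD1) 43.3 and 39.3 CPM. *Egln1* and *Egln3* are known targets of HIF, the factor that the hydroxylases mark for degradation, and counts per gene do not tell whether a floxed exon is present. The counts of these genes therefore do not check the genotype, and the second sample is called the library labelled PHDTiEC throughout.

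Clustering gave 30 clusters, of which 28 took names from marker lists and fell into 22 classes. Class names end in -like, with PT for proximal tubule, TAL for thick ascending limb, DCT for distal convoluted tubule, CD for collecting duct and IC for intercalated cells. The thin limb-like class (245 and 216 cells) rests on 3 markers, *Slc14a2*, *Fst* and *Bst1*, and its leading genes also include *Ankrd1*, *Nupr1* and *Cryab*. Its own markers summed to 1203 and 1147 CPM, injured PT markers to 786 and 762 CPM and macrophage markers to 976 and 887 CPM. The nephron segment of these cells was not tested. CD/IC-like cells carried markers of both names and had the deepest barcodes, with a median of 48338 and 52548 UMIs. Barcodes with markers of more than 1 lineage made up 10.9% and 11.6% of the kept ones and were left in, and no doublet caller was run.

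The level of *Cdkn1a* differed more between cell types than between the libraries. Among the 18 classes with at least 100 cells in each library, neutrophil-like cells had the highest level. It was 1182 CPM (95% interval 1122 to 1243, exact Poisson) in the Cre- library and 1099 CPM (1044 to 1157) in the library labelled PHDTiEC. This interval covers counting error only, as does every interval of a level or log2 ratio below. Thin limb-like cells came next, with 900 and 872 CPM, followed by endothelial-like cells with 590 and 848 CPM and monocyte-like cells with 596 and 594 CPM. In the Cre- library the monocyte-like and endothelial-like intervals overlapped, and in the other library those of thin limb-like and endothelial-like cells did. Macrophage-like cells had 362 and 331 CPM. The smaller endothelial/pericyte-like class (93 and 112 cells) had 784 and 884 CPM. The PT-like cells had the lowest level of the 18 classes in the Cre- library, 39.6 CPM, and 74.7 CPM in the other, where NK/T-like cells were lower at 52.9 CPM. Barcodes under 100 UMIs, which hold mostly free RNA, had 191 and 207 CPM of *Cdkn1a*.

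**Figure D1:**
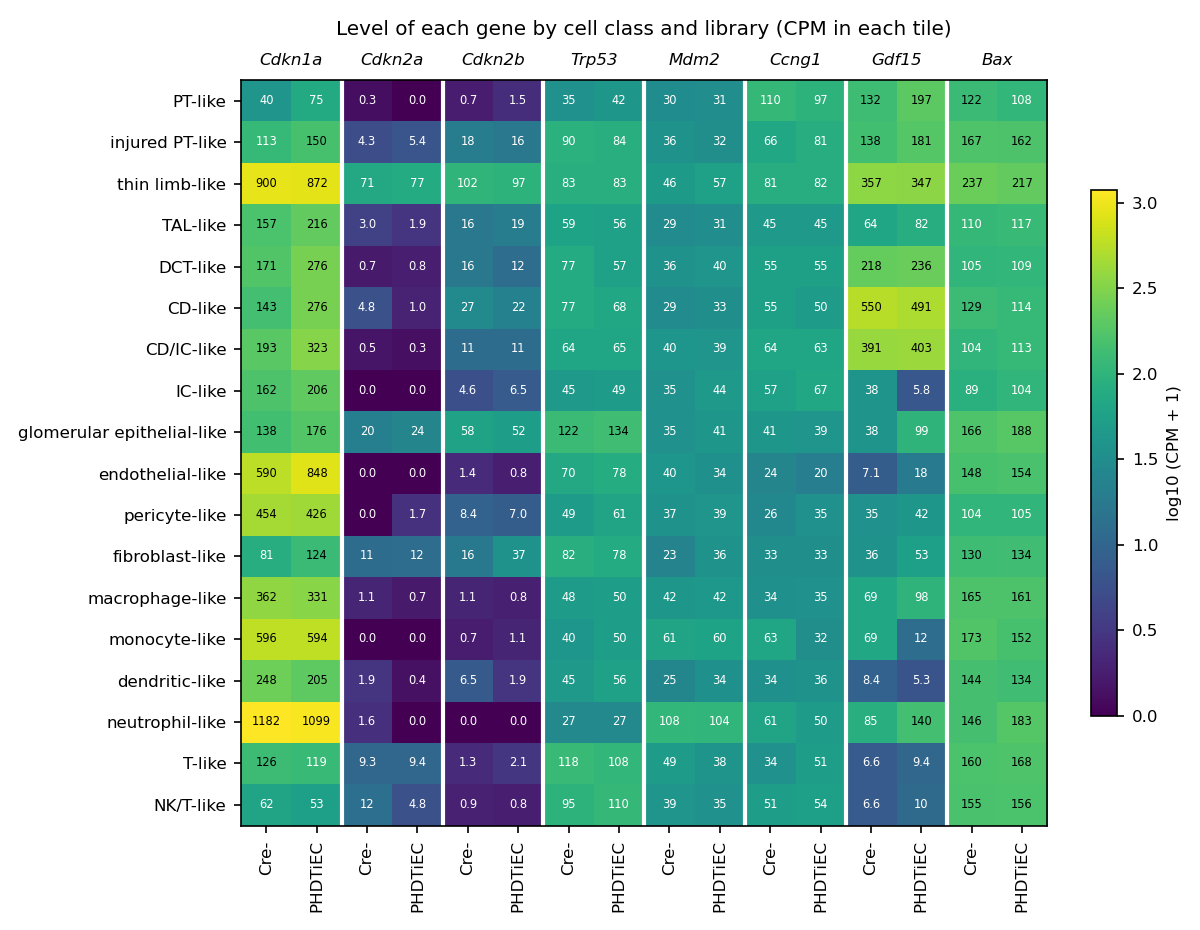
Level of the 8 genes in the 18 classes with at least 100 cells in each library, as CPM in each tile, with colour on a log10 (CPM + 1) scale and 1 column per library. *Cdkn2a* and *Cdkn2b* are brightest in thin limb-like cells, at 71.4 and 102 CPM in the Cre- library, and *Gdf15* in CD-like cells, at 550 and 491 CPM.

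**Figure D2:**
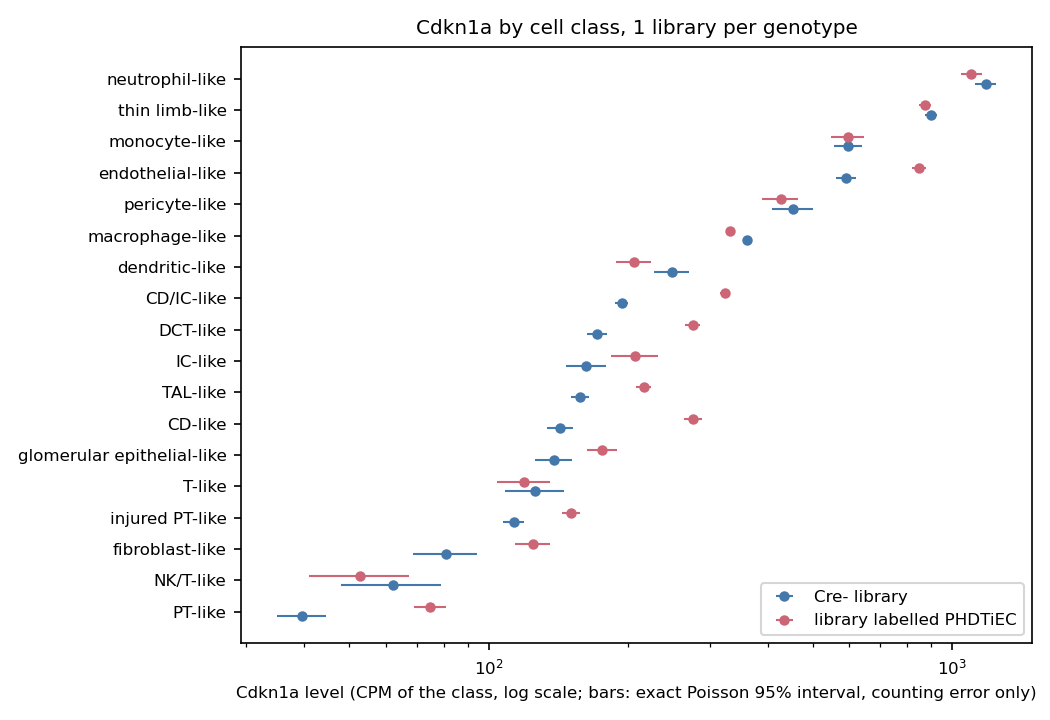
*Cdkn1a* level in CPM on a log axis, by class, ordered by the Cre- library, with 1 point per library and exact Poisson 95% intervals that cover counting error only. The points of the library labelled PHDTiEC lie to the right in the tubular, endothelial-like and fibroblast-like classes, as in CD-like cells (143 and 276 CPM), and near or to the left of the Cre- points in thin limb-like, pericyte-like and leukocyte classes.

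To read differences between the libraries, a gene was said to be past the fold where it had at least 50 UMIs over both libraries in a class and its CPM differed by at least 1.5 times. Between 4825 and 12636 genes had 50 UMIs in the 14 classes described here, and the shares of them past the fold are given beside each count of members. In PT-like cells 1 of 6 members was higher in the library labelled PHDTiEC and 0 lower, against 3.93% and 3.16% of all genes. Injured PT-like cells had 0 of 8 members past the fold (4.01% of genes higher and 2.51% lower), as had thin limb-like cells (2.03% and 2.97%). In TAL-like cells 0 of 8 were higher and 1 lower (4.05% and 2.37%), in DCT-like cells 1 of 7 higher and 0 lower (4.90% and 2.84%) and in CD-like cells 1 of 7 higher and 0 lower (4.15% and 3.62%). CD/IC-like cells had 1 of 7 higher and 0 lower (2.98% and 3.18%), and IC-like cells 0 of 6 higher and 1 lower (6.03% and 3.48%). In glomerular epithelial-like cells 1 of 8 was higher and 0 lower (3.99% and 2.27%), and in endothelial-like cells 1 of 6 higher and 0 lower (4.87% and 5.37%). Fibroblast-like cells had the most members past the fold of these classes, 3 of 8 higher and 0 lower (8.19% and 3.02%). Macrophage-like cells had 0 of 6 (1.85% and 2.41%), monocyte-like cells 0 of 6 higher and 2 lower (4.70% and 7.04%) and neutrophil-like cells 1 of 6 higher and 0 lower (4.93% and 3.34%). With so few members in a class, 1 gene past the fold is a large share of them, so these counts are read gene by gene below.

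*Cdkn1a* was past the fold, and higher in the library labelled PHDTiEC, in 5 of the 14 classes. In CD-like cells it had 897 UMIs, or 143 CPM, in the Cre- library and 1966 UMIs, or 276 CPM, in the other, a 1.93-fold difference and a log2 ratio of 0.95 (95% interval 0.84 to 1.07, exact binomial on the split of the UMIs). In PT-like cells the counts were 265 and 630 UMIs, or 39.6 and 74.7 CPM, with a log2 ratio of 0.92 (0.71 to 1.13). CD/IC-like cells, at 193 and 323 CPM, had a log2 ratio of 0.74 (0.68 to 0.80), and DCT-like cells 171 and 276 CPM and a log2 ratio of 0.69 (0.60 to 0.78). Fibroblast-like cells had 157 and 525 UMIs, or 80.8 and 125 CPM, with a log2 ratio of 0.62 (0.36 to 0.89), and single cells gave 10.8% and 10.3% of these UMIs. Of these 5 classes 4 were tubular. The call was lost at a coarser clustering, where 721 and 877 cells took the PT name and no separate injured PT-like cluster formed (0.50), in DCT-like cells with a mitochondrial limit of 20% (0.57) and in fibroblast-like cells as a mean over cells (0.45), where it was 1.49 with free RNA subtracted.

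Below the 1.5-fold mark, endothelial-like cells, the cell type of the Cre driver, had 1661 and 3214 *Cdkn1a* UMIs, a 1.44-fold difference and a log2 ratio of 0.52 (0.44 to 0.61). The difference was of like size in both clusters of the class. The cluster led by *Sox17* and *Jam2* had 734 and 1021 CPM (log2 ratio 0.48), and the cluster led by *Plvap* and *Gpihbp1* had 369 and 500 CPM (0.44). Markers of other lineages differed in the class, with TAL markers at 680.5 and 109 CPM and neutrophil markers at 202 and 70.9 CPM, whereas macrophage markers stood at 679 and 679 CPM, and their part in the result was not tested. TAL-like cells had 157 and 216 CPM (0.46, 0.38 to 0.54) and injured PT-like cells 113 and 151 CPM (0.41, 0.31 to 0.51). In injured PT-like cells 1 cell held 9.92% of the UMIs in the library labelled PHDTiEC, and where barcodes were classed by their own markers without clusters the log2 ratio was 0.01. IC-like cells (0.35, 0.12 to 0.57) and glomerular epithelial-like cells (0.35, 0.18 to 0.52) also had intervals above 0. Levels in injured PT-like, IC-like and glomerular epithelial-like cells lay below the 191 and 207 CPM of barcodes under 100 UMIs. In 3 other classes with high levels the interval held 0: the log2 ratio was -0.05 (-0.11 to 0.02) in thin limb-like, 0.00 (-0.16 to 0.15) in monocyte-like and -0.10 (-0.21 to 0.00) in neutrophil-like cells. Macrophage-like cells had a slightly lower level in the library labelled PHDTiEC, at 331 CPM (9062 UMIs) against 362 CPM (8598 UMIs), with a log2 ratio of -0.13 (-0.17 to -0.08).

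The share of cells with a *Cdkn1a* UMI was higher as well in most of these classes. With each cell thinned to 2000 UMIs and shallower cells left out, 18.1% of 291 CD-like cells in the Cre- library and 31.6% of 326 in the other carried the transcript, against 55.5% (49.6 to 61.3%, exact binomial) and 74.7% (69.6 to 79.3%) before thinning. DCT-like cells had 17.7% and 31.9% after thinning, CD/IC-like cells 28.7% and 42.3%, TAL-like cells 19.4% and 27.3% and endothelial-like cells 47.6% and 54.3%. PT-like cells, the class with the lowest share among these, had 5.79% and 9.06%. In fibroblast-like cells the shares were close to each other, 9.27% and 11.0%, as in injured PT-like cells, 15.5% and 17.3%. Thinning kept 157 of 182 and 90 of 114 IC-like cells, the tubular class that lost the largest share. Of the neutrophil-like cells 203 of 626 and 213 of 661 remained, with 59.1% and 59.0%.

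Other measures also differed between the libraries in the distal classes and in PT-like cells. *Atf3*, a stress-induced transcription factor of the integrated stress response list, was also past the fold in CD-like cells (748 and 1454 CPM, log2 ratio 0.96, 0.91 to 1.01) and DCT-like cells (952 and 1495 CPM, 0.65, 0.61 to 0.69), and had 0.55 (0.52 to 0.57) in CD/IC-like and 0.40 (0.37 to 0.43) in TAL-like cells. In thin limb-like and injured PT-like cells *Atf3* had log2 ratios of -0.02 and 0.00. In CD-like cells *Atf3* was the 1 gene of 8 in the list past the fold (4.15% of all genes higher and 3.62% lower). The list median there was -0.15, against 0.06 for all genes. In DCT-like cells 1 of 8 was higher and 2 lower (4.90% and 2.84% of all genes), *Nupr1* (97.7 and 61.6 CPM, -0.67, -0.82 to -0.51) and *Asns* (18.4 and 12.1 CPM, -0.60, -0.96 to -0.25). The list median there was 0.21, against 0.10 for all genes. The 15 immediate early and heat shock genes, which tissue dissociation can induce, summed to 11628 and 14242 CPM in CD-like and to 9931 and 13066 CPM in DCT-like cells. In PT-like cells they summed to 4738 and 6108 CPM, and in fibroblast-like cells to 11847 and 11389 CPM. TAL-like cells had 11218 and 13330 CPM and CD/IC-like cells 14952 and 16902 CPM. Thin limb-like cells, where the *Cdkn1a* interval held 0, had 18455 and 20180 CPM. The median mitochondrial share was lower in the library labelled PHDTiEC, at 9.10% and 6.42% in CD-like, 8.74% and 5.87% in DCT-like, 12.8% and 9.73% in PT-like, 4.12% and 2.98% in thin limb-like and 3.33% and 2.36% in macrophage-like cells. Segment markers differed too: DCT-like cells had 2376 and 1286 CPM of TAL markers, 2306 and 1824 CPM of DCT markers and 649 and 1124 CPM of CD markers, CD-like cells had 3865 and 4716 CPM of CD markers and 570 and 319 CPM of DCT markers. In PT-like cells the markers of injured PT were lower in the library labelled PHDTiEC, at 338 and 193 CPM. Neutrophil markers summed to 138 and 13.8 CPM in PT-like, 71.2 and 10.5 CPM in CD-like and 37.1 and 196 CPM in fibroblast-like cells, and fibroblast markers to 4.93 and 54.1 CPM in CD-like cells. The part of each of these in the *Cdkn1a* values was not tested.

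**Figure D3:**
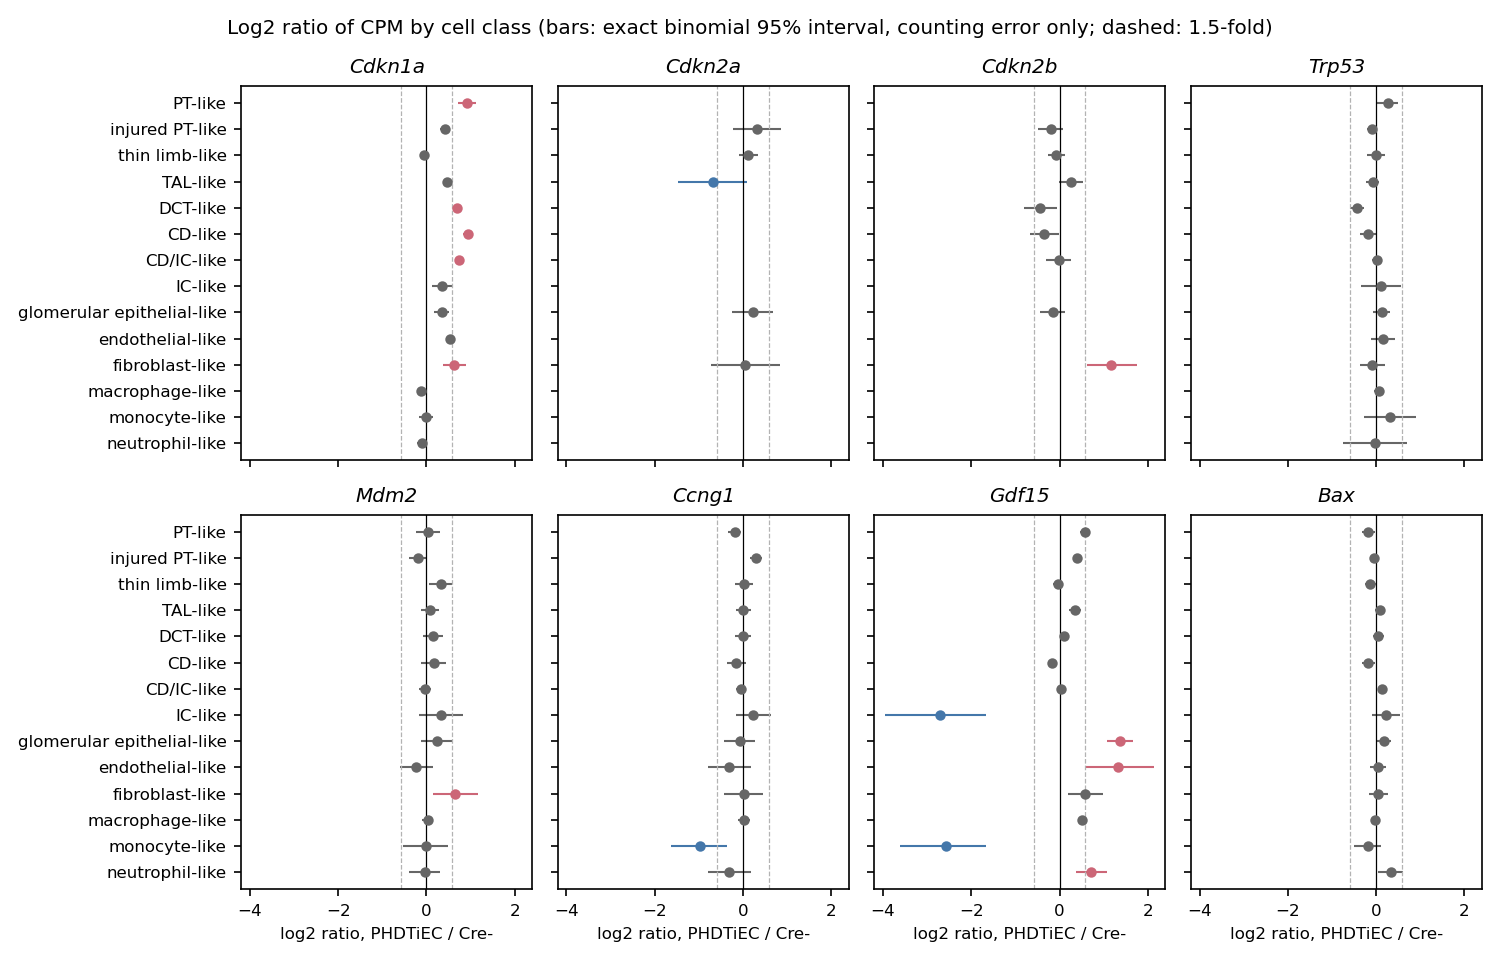
Log2 ratio of CPM, the library labelled PHDTiEC over the Cre- library, for each gene in the 14 classes where it had at least 50 UMIs, with exact binomial 95% intervals for counting error only. Dashed lines mark 1.5-fold, red points are past it upwards and blue points downwards. *Cdkn1a* lies above 0 from PT-like to fibroblast-like cells except in thin limb-like cells, whereas *Trp53*, *Mdm2*, *Ccng1* and *Bax* lie near 0 in most classes.

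*Cdkn2a* was a rare transcript that stood mostly in 1 cell class. Of its 662 UMIs in the Cre- library, 361 were in thin limb-like cells (54.5%), and of its 683 in the library labelled PHDTiEC, 355 (52.0%), although this class held 4.27% and 3.46% of all UMIs. Its level there was 71.4 CPM (64.3 to 79.2) and 77.4 CPM (69.5 to 85.9), a log2 ratio of 0.12 (-0.10 to 0.33). Glomerular epithelial-like cells followed with 20.4 and 23.7 CPM, and fibroblast-like cells had 11.3 and 11.6 CPM. NK/T-like cells had 12.2 and 4.81 CPM, from few UMIs, and T-like cells 9.27 and 9.37 CPM. Within the T-like class, the cycling cluster led by *Hist1h1b* and *Top2a* (31 and 46 cells) had 11 and 17 UMIs, or 28.1 and 31.0 CPM. After thinning, 12.98% and 12.12% of thin limb-like cells had a *Cdkn2a* UMI, against 0.804% and 0.957% of injured PT-like and 0.105% and 0.0965% of macrophage-like cells.

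No *Cdkn2a* UMI was seen among the 317 and 441 endothelial-like cells, which allows a level of up to 1.07 and 0.791 CPM at 3 counts. PT-like cells had 2 and 0 UMIs. TAL-like cells were the class in which *Cdkn2a* was past the fold, with 37 and 25 UMIs and a log2 ratio of -0.68 (-1.47 to 0.09), an interval that holds 0, and of 0.24 where barcodes were classed by their own markers. The levels there, 3.005 and 1.88 CPM, lay below the 3.73 and 5.1 CPM of barcodes under 100 UMIs. CD-like cells had 30 and 7 UMIs, too few for the 50 UMI minimum, with a log2 ratio of -2.28 (-3.71 to -1.07).

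Thin limb-like cells with a *Cdkn2a* UMI mostly carried the other inhibitors as well. In the Cre- library 95 of the 99 such cells had a *Cdkn1a* UMI (96.0%), against 78.8% of the rest of the class, and 79 had a *Cdkn2b* UMI (79.8%), against 44.5%. In the library labelled PHDTiEC 78 of 79 had *Cdkn1a* (98.7% against 82.5%) and 67 had *Cdkn2b* (84.8% against 54.0%). The cells with *Cdkn2a* were deeper, with a median of 19826 and 20896 UMIs against 10114 and 12101, and depth raises every such share. Free RNA was estimated at 24.6% and 16.6% of the UMIs of this class, and its part in these shares was not tested.

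*Cdkn2b* had the same leading classes. Its level was 102 and 97.2 CPM in thin limb-like cells, a log2 ratio of -0.07 (-0.26 to 0.11), and 57.6 and 51.6 CPM in glomerular epithelial-like cells (-0.16, -0.45 to 0.13). CD-like cells had 27.4 and 21.6 CPM (-0.34, -0.66 to -0.02) and DCT-like cells 15.8 and 11.7 CPM (-0.43, -0.81 to -0.06), both lower in the library labelled PHDTiEC, where *Cdkn1a* was higher in the same classes. TAL-like cells had 16.2 and 19.3 CPM (0.25, -0.02 to 0.53). Of the 8 classes with at least 50 UMIs, fibroblast-like cells were past the fold. They had 32 UMIs, or 16.5 CPM, in the Cre- library and 156 UMIs, or 37.0 CPM, in the other, a 2.25-fold difference and a log2 ratio of 1.17 (0.61 to 1.77). The UMI was present in 20 of 162 and 64 of 305 fibroblast-like cells, and after thinning in 2.59% and 5.17%. Classing the barcodes by their own markers gave a log2 ratio of 0.41.

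*Trp53* itself differed little between the libraries, with log2 ratios from -0.44 to 0.31 over the 14 classes and none past the fold. Its highest level was in glomerular epithelial-like cells, at 122 and 134 CPM, and its lowest in neutrophil-like cells, at 27.1 and 26.7 CPM, where *Cdkn1a* was highest. In DCT-like cells *Trp53* was at 77.1 and 57.0 CPM (-0.44, -0.60 to -0.27), while *Cdkn1a* in the same cells was higher. *Mdm2* was likewise even, with a median log2 ratio of 0.06 over the 14 classes. Neutrophil-like cells had the highest *Mdm2* level, 108 and 104 CPM, and most tubular classes lay between 29.1 and 57.1 CPM. In CD-like and PT-like cells its log2 ratios were 0.17 (-0.12 to 0.45) and 0.03 (-0.24 to 0.30). *Mdm2* was past the fold in fibroblast-like cells, with 44 and 150 UMIs, or 22.6 and 35.6 CPM, and a log2 ratio of 0.65 (0.16 to 1.17), which was 0.53 with marker-classed barcodes, 0.22 as a mean over cells and 1.51 with free RNA subtracted. Barcodes under 100 UMIs had 40.4 and 32.2 CPM of *Mdm2*.

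The targets *Ccng1* and *Bax* did not share the pattern of *Cdkn1a*. *Ccng1* was highest in PT-like cells, at 110.5 and 96.8 CPM (log2 ratio -0.19, -0.34 to -0.05), and had -0.15 (-0.37 to 0.07) in CD-like and 0.01 (-0.17 to 0.19) in DCT-like cells. In injured PT-like cells it was 65.9 and 80.6 CPM (0.29, 0.16 to 0.43), against -0.04 with marker-classed barcodes. It was past the fold in monocyte-like cells, with 86 and 30 UMIs and a log2 ratio of -0.98 (-1.63 to -0.36), against -0.33 with marker-classed barcodes. *Bax* had log2 ratios between -0.19 and 0.33 in the 14 classes and was highest in thin limb-like cells, at 237 and 217 CPM. In CD-like cells *Bax* had 129 and 114 CPM (-0.18, -0.32 to -0.04).

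*Gdf15* was mainly a transcript of the distal nephron. CD-like cells had 550 and 491 CPM (log2 ratio -0.16, -0.23 to -0.10), CD/IC-like cells 391 and 403 CPM (0.04, 0.00 to 0.09), thin limb-like cells 357 and 347 CPM and DCT-like cells 218 and 236 CPM. These were the 4 highest named classes in the Cre- library, and their levels differed little between the libraries. In PT-like cells *Gdf15* had 884 and 1666 UMIs, or 132 and 197 CPM, a 1.496-fold difference that just misses the mark (log2 ratio 0.58, 0.46 to 0.70). Injured PT-like cells had 138 and 181 CPM (0.39, 0.30 to 0.48), but -0.20 with barcodes classed by their own markers. Macrophage-like cells had 68.8 and 98.1 CPM (0.51, 0.42 to 0.60). Their clusters did not all go this way. The cluster led by *Gpnmb* and *Mmp12* had 449 and 1107 UMIs (0.95, 0.80 to 1.12), and the cycling cluster led by *Hist1h1b* and *Top2a* had 182 and 71 UMIs (-1.31, -1.73 to -0.91).

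Where *Gdf15* was past the fold, its UMIs were fewer. Its level in these classes lay below that of barcodes under 100 UMIs, which hold mostly free RNA (165 and 179 CPM). Glomerular epithelial-like cells had 127 and 395 UMIs, or 38.1 and 98.6 CPM (log2 ratio 1.37, 1.08 to 1.67). Pericyte markers in this class summed to 3795 and 6495 CPM and TAL markers to 49.5 and 324 CPM, and their part in the result was not tested. Subtracting free RNA gave a log2 ratio of 2.51, and marker-classed barcodes gave a *Gdf15* log2 ratio of -0.19. A finer clustering gave -0.39, but there the name stayed with 19 and 48 shallow barcodes, and 176 and 192 cells were named glomerular epithelial/pericyte-like. In endothelial-like cells it had 20 and 68 UMIs, or 7.10 and 17.9 CPM (1.34, 0.60 to 2.13), with 35.0% and 20.6% of them in 1 cell of each library, and 0.52 with marker-classed barcodes. Of these UMIs 9 and 47 were in the cluster led by *Plvap* and *Gpihbp1* and 11 and 21 in the other. Free RNA was estimated at 35.1% and 28.0% of all UMIs of endothelial-like cells. Neutrophil-like cells had 85.3 and 140 CPM (0.72, 0.37 to 1.07), and a finer clustering, where 357 and 354 cells kept the name, gave -0.78. There a further cluster of 268 and 307 cells, with neutrophil as best match, was left unnamed. IC-like cells had 91 and 8 UMIs, or 37.7 and 5.80 CPM, and monocyte-like cells 95 and 11 UMIs, or 69.2 and 11.7 CPM. In the Cre- library 1 monocyte-like cell held 75 of the 95 UMIs, and without the cell with most UMIs the log2 ratio was -0.61 in place of -2.57. Over the alternatives the monocyte-like log2 ratio ran from -7.4 to -0.51. In IC-like cells 1 cell held 31 of the 91, and the log2 ratio of -2.70 was 0.051 with marker-classed barcodes.

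The wider p53 pathway was read from 29 further target genes. In CD-like cells 22 of them had at least 50 UMIs, and 0 were past the fold (4.15% of all genes higher and 3.62% lower). Their median log2 ratio was 0.06, the same as the 0.06 of all genes. In DCT-like cells 0 of 23 were higher and 1 lower (4.90% and 2.84% of all genes), with a median of 0.13 against 0.10 for all genes. *Pmaip1* (Noxa, a pro-apoptotic BH3 protein) was the lower one, at 23.9 and 13.5 CPM (-0.83, -1.15 to -0.50). PT-like cells had 1 of 22 higher, *Sesn1* (a stress-induced sestrin, 39 and 80 UMIs, 0.70, 0.13 to 1.29), and 1 lower, *Tigar* (33 and 27 UMIs, -0.62, -1.41 to 0.16), with a median of 0.06 against 0.04 for all genes, of which 3.93% were higher and 3.16% lower.

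TAL-like cells had 2 of 24 targets higher and 0 lower (4.05% and 2.37% of all genes), with a median of 0.22 against 0.09 for all genes. They were *Plk3* (43 and 91 UMIs, 0.97, 0.43 to 1.53) and *Apaf1*, the apoptosome scaffold (37 and 65 UMIs, 0.70, 0.10 to 1.33). In CD/IC-like cells *Plk3* was also past the fold (52 and 99 UMIs, 0.73, 0.23 to 1.24), 1 of 25 higher, and *Fas*, the death receptor, 1 lower (81 and 60 UMIs, -0.63, -1.14 to -0.13), with a median of 0.17 against 0.03 for all genes. Of all genes in this class, 2.98% were higher and 3.18% lower. Endothelial-like cells had 2 of 21 higher and 1 lower, against 4.87% and 5.37% of all genes, with a median of -0.01. *Phlda3*, an AKT inhibitor, had 39.1 and 63.3 CPM there (0.70, 0.36 to 1.04), *Polk*, a translesion polymerase, 15.6 and 23.7 CPM (0.60, 0.07 to 1.16) and *Pmaip1* 11.7 and 6.07 CPM (-0.95, -1.79 to -0.14). In thin limb-like cells, with the highest *Cdkn2a* level, 0 of 26 were past the fold (2.03% of all genes higher and 2.97% lower). IC-like cells had 0 of 14 higher and 3 lower (6.03% and 3.48% of all genes), *Plk2* (60.8 and 37.0 CPM, -0.72, -1.21 to -0.25), *Gadd45a* (320 and 208 CPM, -0.62, -0.82 to -0.43) and *Sesn2* (37 and 14 UMIs, -0.59, -1.60 to 0.33). Glomerular epithelial-like cells had 2 of 21 higher and 0 lower (3.99% and 2.27% of all genes), *Perp* (14 and 36 UMIs, 1.10, 0.17 to 2.10) and *Apaf1* (24 and 52 UMIs, 0.85, 0.13 to 1.61). Injured PT-like cells had 1 of 25 higher and 1 lower (4.01% and 2.51% of all genes) and fibroblast-like cells 1 of 19 and 0 (8.19% and 3.02%). Macrophage-like cells had 1 of 25 higher and 0 lower (1.85% and 2.41%), monocyte-like cells 0 of 9 and 1 (4.70% and 7.04%) and neutrophil-like cells 1 of 12 and 0 (4.93% and 3.34%).

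**Figure D4:**
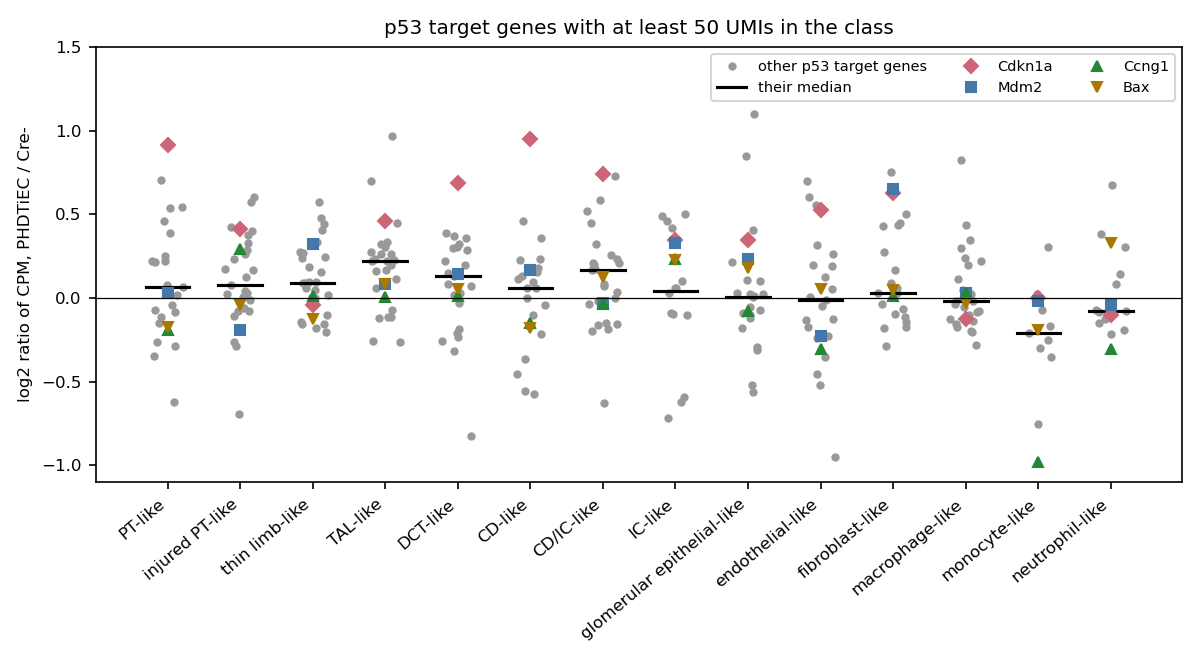
Log2 ratio of CPM of the further p53 target genes with at least 50 UMIs in each of the 14 classes (grey points, spread sideways at random; black bars, their median), beside *Cdkn1a*, *Mdm2*, *Ccng1* and *Bax*. *Cdkn1a* lies above the targets' median from PT-like to CD/IC-like cells except in thin limb-like cells, with 0.95 in CD-like cells against a median of 0.06.

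Of 13 p53 regulators, 9 or 10 had 50 UMIs in PT-like, TAL-like, DCT-like and CD-like cells, and 0 were past the fold there. In that order, 3.93%, 4.05%, 4.90% and 4.15% of all genes were higher and 3.16%, 2.37%, 2.84% and 3.62% lower. The list medians were 0.20, 0.25, 0.20 and 0.09, against 0.04, 0.09, 0.10 and 0.06 for all genes. In fibroblast-like cells the list median was 0.40, against 0.06 for all genes. In CD/IC-like cells 0 of 12 were higher and 1 lower, *Trp63* (2.98% and 3.18% of all genes). In IC-like cells 1 of 8 was higher, *Trp53bp1*, and 0 lower (6.03% and 3.48%). Fibroblast-like cells had 3 of 9 higher, against 8.19% of all genes: the damage kinase *Atr* (9 and 51 UMIs, 1.39, 0.35 to 2.59), the p53 kinase *Hipk2* (31.9 and 57.9 CPM, 0.86, 0.45 to 1.29) and the acetyltransferase *Ep300* (34.0 and 55.8 CPM, 0.72, 0.32 to 1.13). *Atr* was lower in endothelial-like cells (47 and 38 UMIs, -0.74, -1.39 to -0.09). Read as free RNA, markers of other lineages amounted to 34.4% and 42% of the UMIs in fibroblast-like cells. The same estimate was 35.1% and 28.0% in endothelial-like, 25.7% and 14.6% in TAL-like, 21.1% and 37.8% in IC-like and 10.1% and 12.4% in CD-like cells. With free RNA subtracted, the log2 ratios of *Cdkn1a*, *Cdkn2b* and *Mdm2* in fibroblast-like cells were 1.49, 1.49 and 1.51, and its part in the regulators was not tested.

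The partners of the inhibitors showed a mixed picture. Of 12 cyclins and CDKs, 1 of 7 with 50 UMIs was higher and 0 lower in DCT-like cells (4.90% and 2.84% of all genes). CD-like cells had 1 of 8 higher and 1 lower (4.15% and 3.62%). CD/IC-like cells had 1 of 8 and 0 (2.98% and 3.18%). Injured PT-like cells had 2 of 8 and 0 (4.01% and 2.51%). *Ccnd2*, a D-type cyclin that binds CDK4 and CDK6, was past the fold in DCT-like (83.8 and 272 CPM, 1.70, 1.58 to 1.82), CD-like (8.75 and 19.9 CPM, 1.19, 0.73 to 1.66) and CD/IC-like cells (13.5 and 33.4 CPM, 1.31, 1.09 to 1.52), and also in injured PT-like cells (8.01 and 12.9 CPM, 0.68, 0.31 to 1.06). *Cdk1*, the mitotic kinase, had 45 and 16 UMIs in CD-like cells (-1.67, -2.60 to -0.82). TAL-like cells had 0 of 8 genes of this list higher and 1 lower (4.05% and 2.37% of all genes). Endothelial-like cells had 1 of 7 and 0 (4.87% and 5.37%) and fibroblast-like cells 1 of 8 and 0 (8.19% and 3.02%). Neutrophil-like cells had 1 of 5 and 1 (4.93% and 3.34%). Of 6 proliferation markers, 2 had 50 UMIs in CD-like cells and both were lower (3.62% of all genes lower), *Top2a* with 55 and 14 UMIs (-2.16, -3.12 to -1.29) and *Birc5* with 36 and 15 (-1.44, -2.42 to -0.54). In thin limb-like cells *Top2a* (61 and 16 UMIs, -1.79, -2.69 to -0.98) and *Ube2c* (70 and 33 UMIs, -0.95, -1.59 to -0.33) were lower as well. So were *Ube2c* (65 and 32 UMIs, -1.13, -1.79 to -0.50) and *Cenpf* (50 and 27 UMIs, 4.06 and 2.03 CPM) in TAL-like, *Cenpf* in PT-like (43 and 9 UMIs, -2.59, -3.81 to -1.53) and *Birc5* in injured PT-like cells (46 and 24 UMIs, -0.98, -1.76 to -0.24). These were 2 of 2 markers in thin limb-like (2.97% of all genes lower), 2 of 6 in TAL-like (2.37%), 1 of 2 in PT-like (3.16%) and 1 of 5 in injured PT-like cells (2.51%). In injured PT-like cells the list median was 0.21, against 0.04 for all genes. CD/IC-like, glomerular epithelial-like and macrophage-like cells had 0 of 6 past the fold. In 2 classes the markers past the fold were higher: in DCT-like cells *Mki67* had 20 and 35 UMIs (0.68, -0.15 to 1.56), and in fibroblast-like cells *Cenpf* had 19 and 86 UMIs (1.06, 0.33 to 1.86) and *Ube2c* 27 and 93 (0.67, 0.04 to 1.34). They were 1 of 2 markers in DCT-like and 2 of 6 in fibroblast-like cells (4.90% and 8.19% of all genes higher). Of the other cell cycle inhibitors, 0 of 7 were higher and 2 lower in CD-like cells (4.15% and 3.62% of all genes), *Cdkn2c* (-0.69, -1.14 to -0.24) and *Cdkn1c* (-0.62, -1.23 to -0.02). The same 2 were lower and 0 of 7 higher in CD/IC-like cells (2.98% and 3.18%). In DCT-like cells 0 of 7 were higher and 1 lower, *Cdkn1c* (4.90% and 2.84%), and in TAL-like cells 0 of 7 and 1, *Cdkn2c* (4.05% and 2.37%). PT-like and fibroblast-like cells each had 1 of 6 higher, *Cdkn1c* (0.99, 0.12 to 1.92, and 0.72, 0.38 to 1.08), and 1 lower, and injured PT-like cells had 1 of 7 higher, *Cdkn1c* (0.89, 0.36 to 1.44), and 0 lower. Of all genes, 3.93% were higher and 3.16% lower in PT-like, 8.19% and 3.02% in fibroblast-like and 4.01% and 2.51% in injured PT-like cells. *Cdkn1c*, which encodes p57, had 172 and 100.5 CPM in endothelial-like cells (-0.77, -0.97 to -0.57).

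Of the BCL-2 family, to which *Bax* belongs, *Bok* was past the fold in 3 of the classes named here. It had 23.5 and 49.1 CPM in TAL-like (1.07, 0.86 to 1.27), 41.3 and 71.8 CPM in CD-like (0.80, 0.58 to 1.02) and 17.8 and 42.1 CPM in CD/IC-like cells (1.24, 1.05 to 1.43). *Bmf*, a pro-apoptotic member, was lower in CD-like (27.8 and 16.3 CPM, -0.77, -1.13 to -0.43), thin limb-like (-1.19, -1.89 to -0.53), injured PT-like (-0.86, -1.26 to -0.47) and glomerular epithelial-like cells (-1.09, -1.66 to -0.53). Of 10 genes of the family with 50 UMIs in each, 1 was higher and 1 lower in CD-like (4.15% and 3.62% of all genes), 1 and 0 in TAL-like (4.05% and 2.37%) and 2 and 0 in CD/IC-like cells (2.98% and 3.18%). Fibroblast-like cells had 2 of 9 higher and 0 lower (8.19% and 3.02%) and neutrophil-like cells 0 of 6 and 2 (4.93% and 3.34%). In PT-like cells 0 of 9 were past the fold (3.93% and 3.16%), and in DCT-like cells 0 of 10 (4.90% and 2.84%). Senescence-associated secreted and surface genes went both ways. In CD-like cells 4 of 19 were higher and 2 lower (4.15% and 3.62% of all genes), with a median of 0.01. *Areg*, an EGF receptor ligand, had 2 and 67 UMIs there (4.89, 2.98 to 7.96), *Igfbp3* 3 and 51 UMIs (3.91, 2.28 to 6.23) and *Serpine2* 15 and 74 UMIs (2.12, 1.31 to 3.03), whereas in CD/IC-like cells *Areg* had 44 and 8 UMIs (-2.66, -3.96 to -1.56). In endothelial-like cells 3 of 18 were higher and 1 lower (4.87% and 5.37% of all genes), among them *Igfbp3* at 699.6 and 1330 CPM (0.93, 0.85 to 1.00) and *Cxcl2* at 71.7 and 135 CPM (0.91, 0.67 to 1.15). DCT-like cells had 5 of 18 higher and 0 lower (4.90% and 2.84% of all genes), among them *Igfbp5* at 30.4 and 88.6 CPM (1.54, 1.34 to 1.75) and *Ccl2* at 17.5 and 33.3 CPM (0.92, 0.64 to 1.21). Fibroblast-like cells had 4 of 22 higher and 0 lower (8.19% and 3.02%), TAL-like cells 4 of 20 and 3 (4.05% and 2.37%), CD/IC-like cells 4 of 21 and 4 (2.98% and 3.18%), and injured PT-like cells 1 of 19 and 4 (4.01% and 2.51%). PT-like cells had 3 of 15 higher and 3 lower (3.93% and 3.16%), among them *Ccl2* at 28.8 and 7.47 CPM (-1.95, -2.38 to -1.53), while in thin limb-like cells *Ccl2* had 72.4 and 193 CPM (1.42, 1.24 to 1.59).

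The genes whose level pattern over the 18 classes was most like that of a member were named by Pearson's r of log2 (CPM + 1), averaged over the libraries, among 13057 genes with at least 500 UMIs. The points share their libraries, so r is a description. For *Cdkn1a* they were *Ets2* (r = 0.834), *Nfya* (0.832) and *Nfkbiz* (0.826), and for *Cdkn2a* *Aen* (0.885), *Sorcs2* (0.877) and *Bcat1* (0.856). *Cdkn2b* was most like *Sbsn* (0.910), *Tyw5* (0.894) and *Tpbg* (0.891), *Gdf15* like *Per2* (0.861), *Trp53* like *Sf3b3* (0.919), *Mdm2* like *Sde2* (0.922), *Ccng1* like *Mrps21* (0.850) and *Bax*, the least matched, like *Dynlt1a* (0.780). No member was among the 3 genes most like another.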

How the data were processed

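The authors aligned 10X Genomics Chromium 3′ reads to mm10 with Cell Ranger (version 4 per the file headers) and deposited raw UMI counts for every listed barcode; no cell filter or normalization had been applied. Barcodes were filtered as stated, then clustered in Seurat 5.3.0 under R 4.3.3 (10000 counts per cell, 20 principal components, resolution 0.8). Of 2000 variable genes, the 47 that are members or list genes were left out. A cluster took a name only with at least 3 markers of a list in at least 10% of its cells and a mean log2 level at least 1 above the median cluster. These limits alone did not decide a name. The 2 unnamed clusters met them, with PT (4 markers, score 2.93) and injured PT (3 markers, 2.29) as best match. Counts were summed per class and library with SciPy 1.17.1; CPM is the sum over the class total. Ratios are given from 10 UMIs, and floors and the intervals of levels and ratios cover counting error only. The functions were tested on simulated data. The members, lists and tests were chosen with earlier results of these data known. Genes of the lists, the floxed genes aside, were named only where past the fold, at most 3 per list and class, and not every such gene was named. The exception is *Atf3* outside CD-like and DCT-like cells, which was chosen after its values were seen. Of 6 other senescence markers, 1 was higher in DCT-like cells, *Uchl1* (4.90% of all genes), and 1 lower in endothelial-like cells, *Lmnb1* (5.37%). No other described class had 1 of them past the fold. Alternatives covered filters, clusterings, scaling (TMM, edgeR 4.0.16), free RNA and single cells. The smaller classes and 2 unnamed clusters are not described. A gene of the secreted and surface list is not reported here.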

Additional observations from a re-analysis of the deposited data

Results flagged for a closer look

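*Gdf15* stood out because its direction was opposite in 2 cell classes: the log2 ratio of the library labelled PHDTiEC over the Cre- library was 1.37 in glomerular epithelial-like cells and -2.70 in IC-like cells. The difference between these classes was not tested, since each genotype has 1 library. The glomerular epithelial-like value turned to -0.39 under the finer clustering, where the name stayed with 19 and 48 barcodes, and was also below 0 under the per-barcode marker rule. The IC-like value rests on 91 and 8 UMIs, with 31 of the 91 in 1 cell. Under the coarser clustering, the finer clustering and the per-barcode marker rule, the IC-like log2 ratio was 0.076, 0.76 and 0.051. The coarser clustering gave the IC name to 591 and 557 cells in place of 182 and 114, and formed no CD/IC-like cluster, so its value is not of the same cells.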

How the results depend on the processing

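For the 8 genes in the 14 classes, 97 log2 ratios were recomputed under up to 14 alternatives, 1313 values in all, of which 1222 stayed within the counting interval of the reported value. The sign was the same in 1185 and other in 128. Of 190 values for the 14 ratios past the fold, 171 were past it in the same direction. *Cdkn1a* in PT-like, TAL-like, DCT-like, CD-like and endothelial-like cells kept its sign in 68 of 68. Its log2 ratio in PT-like cells was 0.50 at resolution 0.4, with 721 and 877 cells of that name, and 1.26 as a mean over cells. In DCT-like cells it was 0.81 with the complexity minimum of 0.8, 0.57 with a mitochondrial limit of 20% and 1.07 as a mean over cells. It was 0.58 in TAL-like cells with free RNA subtracted and 0.82 in CD-like cells at resolution 1.2. In endothelial-like cells it was 0.39 without barcodes that carry markers of another lineage and 0.41 as a mean over cells. Among ratios past the fold, signs turned for *Cdkn2a* in TAL-like cells (0.24 under the per-barcode marker rule), for *Gdf15* in IC-like cells (0.076 at resolution 0.4, 0.76 at 1.2 and 0.051 under the marker rule), in glomerular epithelial-like cells (-0.39 at resolution 1.2 and -0.19 under the marker rule) and in neutrophil-like cells (-0.78 at resolution 1.2). Among smaller ratios whose interval excluded 0, signs turned too, by most for *Gdf15* in injured PT-like cells (0.39 and -0.20 under the marker rule) and in fibroblast-like cells (0.58 and -0.67 as a mean over cells). Other clusterings gave these names to other sets of cells (591 and 557 IC-like cells at resolution 0.4, 19 and 48 glomerular epithelial-like and 357 and 354 neutrophil-like cells at 1.2). The causes of the turns were not tested. Resolution 0.4 and the marker rule gave no value where they formed no such class. No paired analysis was possible because each genotype has 1 library. Depth limits *Cdkn2a* most: outside 5 classes it had under 50 UMIs.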
